A study of Mus musculus with 16 samples.

Results

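The genes described here belong to families of enzymes that oxidise or reduce alcohols, aldehydes, ketones and retinoids. They were chosen by symbol alone: every gene of the expression tables whose symbol begins with Adh, Aldh, Akr, Rdh, Dhrs or Aox followed by a digit. Of 23996 genes listed, 70 met this rule. They were 6 alcohol dehydrogenase (ADH), 20 aldehyde dehydrogenase (ALDH) and 17 aldo-keto reductase (AKR) genes. The rest were 13 retinol dehydrogenase (RDH), 10 short-chain dehydrogenase/reductase (DHRS) and 4 aldehyde oxidase (AOX) genes. Among the 70, Adh6-ps1 and Rdh18-ps carry the symbols of pseudogenes.

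ADH enzymes oxidise alcohols such as ethanol and retinol to aldehydes, and ALDH and AOX enzymes oxidise the aldehydes to acids, so the families follow each other in ethanol and in retinoic acid metabolism. AKR enzymes reduce aldehydes, ketones and steroids with NADPH. RDH and DHRS enzymes belong to the short-chain dehydrogenases, and several of them interconvert retinol and retinaldehyde in membranes. The liver is the main site of ethanol oxidation, and hepatocytes express many members of these families at high levels.

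RNA-Seq was performed in 3 primary mouse cell types after depletion of Ssu72, a phosphatase of the C-terminal domain of RNA polymerase II. C57BL/6 mouse embryonic fibroblasts (MEFs) came from embryonic day 13.5, hepatocytes from mice given as 6 weeks old in the labels and a little younger in the study's methods, and embryonic stem (ES) cells from the inner cell mass. Control cells received an adenovirus carrying luciferase (Ad-Luc), and depleted cells received one carrying Cre recombinase (Ad-Cre), which deletes Ssu72 exon 1 between loxP sites. Each MEF and hepatocyte group held 3 samples and each ES group 2, for a total of 16. The control genotype is given as WT in the labels, whereas the study's methods describe floxed cells infected with either virus, so what the controls carried is known only as far as these sources state it. The study's methods call its samples and experiments independent, without saying whether they came from separate animals or cultures. The study's methods describe infection at low serum with a protein transduction peptide, and hepatocyte culture with dexamethasone. Viral infection is shared by all groups, and an uninfected group was not analysed here. The column of ES control cells is marked FS in the table, unlike that of the Ad-Cre cells, which is marked ES, and reading it as the control rests on its Ad-Luc mark.

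Each cell type has a table with 1 FPKM value per gene and group (fragments scaled to transcript length and library size), which is the authors' value over the samples of that group. The values carry no error, the read depth is unknown, and no test between groups was made. A gene is described as higher or lower when its Ad-Cre value differed from its Ad-Luc value by over 1.5-fold and the mean of both values was at least 1 FPKM. This is a statement of size. The share of all genes past the same fold is given as the background of each comparison. Because FPKM is a share of the library and the tables were scaled separately, levels set side by side across cell types are approximate. In these bulk samples, fewer cells of a type and less RNA per cell cannot be told apart.

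Ssu72 itself, at chr4:155704815-155733873 (mm10), was lower in every Ad-Cre group, in values that cover the whole gene and not only the deleted exon. Its value was 22.7 FPKM in Ad-Luc MEFs and 3.69 FPKM in Ad-Cre MEFs (log2 ratio -2.62), 26 and 5.12 FPKM in hepatocytes (-2.34), and 99.2 and 44.7 FPKM in ES cells (-1.15). The remaining level was 16.3%, 19.7% and 45.1% of the control, so the reduction was smallest in ES cells. The defining markers of each labelled cell type were present, with all 8 hepatocyte, 8 fibroblast and 8 ES cell markers at or above 1 FPKM in their own cells.

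The families were used differently by the 3 cell types. In hepatocytes 45 of the 70 genes had a mean of both groups of at least 1 FPKM, beside 36 in MEFs and 32 in ES cells. A core set was high in every cell type. Akr1a1, an NADPH-dependent aldehyde reductase, had a mean level of 283 FPKM in MEFs, 265 FPKM in ES cells and 219 FPKM in hepatocytes. Aldh2, the mitochondrial enzyme that oxidises acetaldehyde, had 87.7, 185 and 209 FPKM, and Adh5, which oxidises the glutathione adduct of formaldehyde, had 57, 150 and 47.6 FPKM in the same order. Among the genes with the highest levels in MEFs and ES cells were also Aldh18a1, a proline synthesis enzyme (74.1 FPKM in MEFs), Aldh16a1 (33.1 FPKM in ES cells), Aldh7a1, an enzyme of lysine breakdown (28.8 FPKM in ES cells), and Akr1b8 (39.4 FPKM in MEFs and 24.9 FPKM in ES cells).

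Other members had their highest level in hepatocytes. Aldh1a1, a cytosolic enzyme that oxidises retinaldehyde to retinoic acid, had a mean of 479 FPKM in hepatocytes, 0.629 FPKM in MEFs and 0.0259 FPKM in ES cells. Adh1, the classical ethanol and retinol dehydrogenase of the liver, had 96.9 FPKM in hepatocytes, 0.712 FPKM in MEFs and was listed at 0 in ES cells. Dhrs3, which reduces retinaldehyde back to retinol, had 116 FPKM in hepatocytes, 23.2 FPKM in MEFs and 2.52 FPKM in ES cells. Akr1b3, aldose reductase, was listed at 0 in both hepatocyte groups. Its transcripts share 7.36% of their 100-base words with pseudogenes, and since a 0 in such a table can be a failed estimate, no reading is made of it.

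In hepatocytes, 10 of the 45 genes at or above 1 FPKM were lower with Ad-Cre (22.2%) and 0 were higher. Over all 11790 genes at this level, 5.69% were lower and 5.7% were higher. The 10 genes were Adh1, Akr1c6, Akr1c14, Akr1c19, Akr1c20, Akr1e1, Aldh1a7, Aldh6a1, Aox3 and Rdh7. Log2 ratios were below 0 for 33 of the 45 genes and above 0 for 12, with a median of -0.20 against 0.02 over all genes. Among the families, 5 of 11 AKR genes were lower, 2 of 15 ALDH genes, 1 of 3 ADH genes, 1 of 6 RDH genes, 1 of 2 AOX genes and 0 of 8 DHRS genes.

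**Figure D1:**
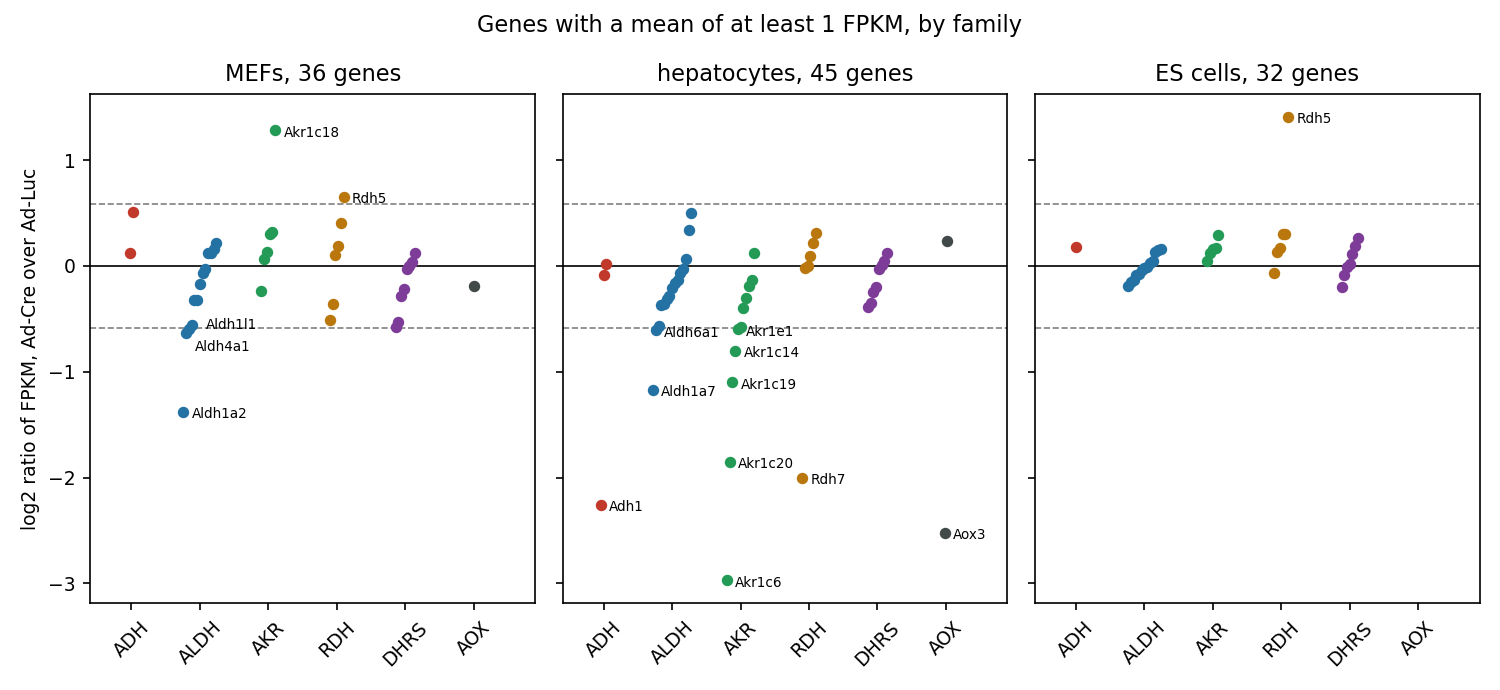
Log2 ratio of the FPKM values (Ad-Cre over Ad-Luc, vertical axis) for each gene with a mean of at least 1 FPKM, by family, in MEFs (36 genes), hepatocytes (45 genes) and ES cells (32 genes). Each point is 1 gene, dashed lines mark 1.5-fold, and named points lie past it; in hepatocytes all 10 named points lie below 0, down to -2.97 for Akr1c6, and in ES cells only Rdh5 is named.

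Adh1 showed the largest loss in FPKM among the ADH genes. Its level was 160 FPKM in Ad-Luc hepatocytes and 33.6 FPKM in Ad-Cre hepatocytes, a log2 ratio of -2.26, and only 0.314% of all genes at or above 1 FPKM had a ratio as low. The other ADH genes at or above 1 FPKM did not share this. Adh4, a liver class of the enzyme, had 1.53 and 1.55 FPKM (0.02), and Adh5 had 49.2 and 46.1 FPKM (-0.09). Adh7, the gene before Adh1, had 0.615 and 0.214 FPKM (-1.52), too low for a call. The summed level of the family was 212 FPKM with Ad-Luc and 81.4 FPKM with Ad-Cre, a difference that lay nearly all in Adh1.

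Aox3, an aldehyde oxidase of mouse liver, had 19.8 FPKM with Ad-Luc and 3.44 FPKM with Ad-Cre (-2.52). Aox1, the adjacent gene 6726 bp upstream on the same strand, had 51.9 and 61.3 FPKM (0.24). The pair thus stood on different sides of 0 in the same cells, and their transcripts share no 100-base word. Their coding sequences were 66.9% identical. Aox2 and Aox4 stayed below 1 FPKM in every cell type.

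Rdh7, a short-chain dehydrogenase that acts on retinol and on hydroxysteroids, had 2.84 FPKM with Ad-Luc and 0.709 FPKM with Ad-Cre, 4.01-fold lower. It was the only one of 6 genes in its cluster on chromosome 10 to reach 1 FPKM in hepatocytes. Its transcripts share 4.05% of their 100-base words with relatives, among them Rdh18-ps and Rdh1, which had mean levels of 0.111 and 0.124 FPKM. The better expressed retinol dehydrogenases did not move past the fold. Rdh11 had 22.2 and 22.1 FPKM, Rdh10, which forms retinaldehyde in the embryo, had 18.5 and 18.2 FPKM, and Rdh5, which oxidises cis-retinols, had 8.8 and 10.9 FPKM (0.31).

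The aldehyde dehydrogenases were mostly kept. Aldh1a1 had 505 FPKM with Ad-Luc and 453 FPKM with Ad-Cre (-0.16), Aldh2 had 214 and 204 FPKM (-0.07), and Aldh3a2, which oxidises fatty aldehydes, had 68.1 and 54.9 FPKM (-0.31). The exceptions were Aldh1a7, a paralogue of Aldh1a1, with 16.9 and 7.52 FPKM (-1.17), and Aldh6a1, an enzyme of valine breakdown, with 8.6 and 5.65 FPKM (-0.61). Among members at or above 1 FPKM, the highest ratio in hepatocytes was that of Aldh18a1, with 14 and 19.8 FPKM (0.50), which is within the fold. The family's summed level was 971 FPKM with Ad-Luc and 874 FPKM with Ad-Cre.

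Aldo-keto reductases of the Akr1c group act largely on steroids and related ketones. Akr1c6, a 17-ketosteroid reductase, had 10.2 FPKM with Ad-Luc and 1.3 FPKM with Ad-Cre, the lowest ratio of all 70 genes in hepatocytes among those at or above 1 FPKM (-2.97). Akr1c20, the closest relative of Akr1c6 with 92.3% identical coding bases, had 4.25 and 1.18 FPKM (-1.85). Akr1c19 had 23.3 and 10.9 FPKM (-1.10). Akr1c14, a hydroxysteroid dehydrogenase with the highest level of the group, had 80.2 and 46.2 FPKM (-0.80). These 4 genes were all lower, and the size of the difference ranged from 1.74-fold to 7.85-fold.

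Other AKR genes lay near or within the fold. Akr1e1, which reduces anhydrofructose, was just past it with 10.9 and 7.18 FPKM (1.517-fold), as was Aldh6a1 at 1.521-fold. Akr1c12 was just inside it with 36.3 and 24.2 FPKM (1.499-fold), and so was Aldh3b1 at 1.482-fold. Akr1c13 had 69.3 and 52.5 FPKM (-0.40). Akr1c12 and Akr1c13 are 96.2% identical in coding sequence and share 11.5% and 9.36% of their 100-base words, so their separate values are uncertain. Akr1a1 had 233 and 205 FPKM (-0.19), and the Akr1b8 and Akr1b10 pair had ratios of 0.12 and -0.13.

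**Figure D2:**
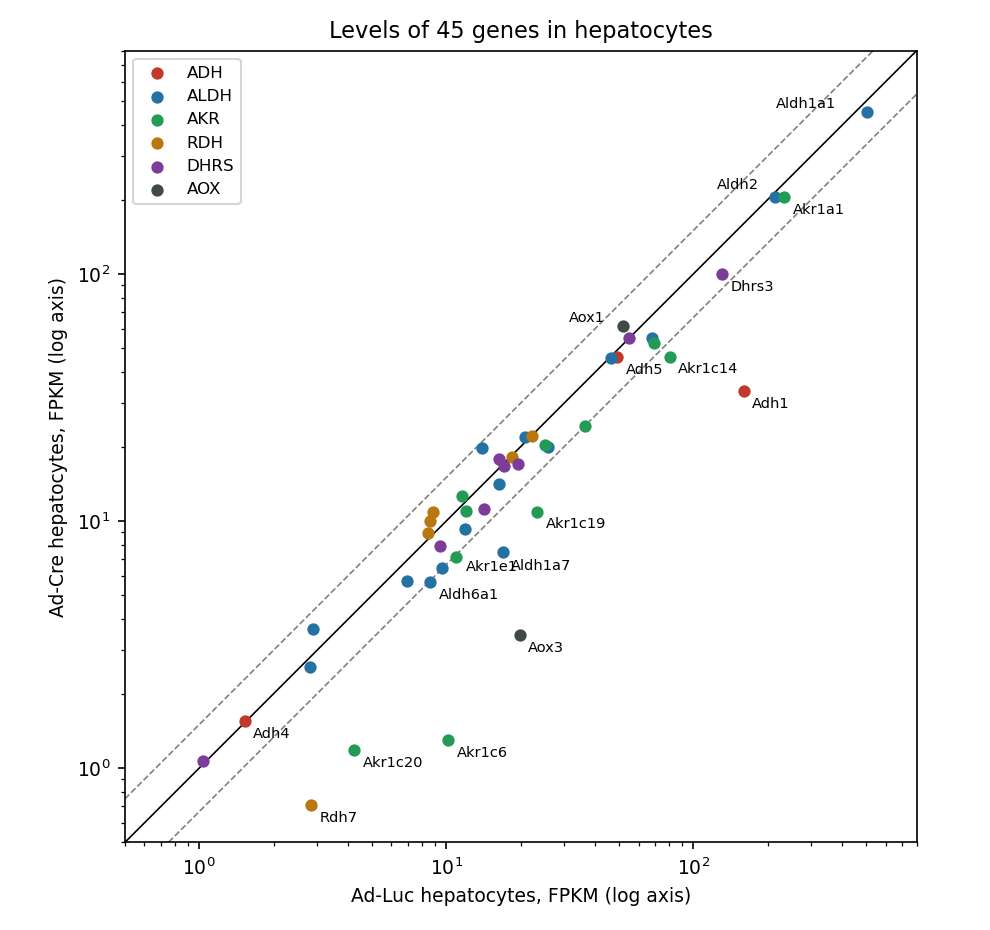
FPKM in Ad-Luc hepatocytes (horizontal, log axis) against FPKM in Ad-Cre hepatocytes (vertical, log axis) for the 45 genes with a mean of at least 1 FPKM, coloured by family, 1 point per gene. The solid line marks equal values and the dashed lines 1.5-fold; Adh1 (160 and 33.6 FPKM), Aox3 (19.8 and 3.44 FPKM) and Akr1c6 (10.2 and 1.3 FPKM) lie farthest below it, and no point lies above the upper dashed line.

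The spread of ratios differed with level, so the ratios were also set against genes of like level. Between 10 and 100 FPKM, 95% of the 5984 genes in hepatocytes had ratios from -0.76 to 0.60, and Adh1, Akr1c14, Akr1c19, Aldh1a7 and Aox3 lay below that range. Between 1 and 10 FPKM the range of the 5078 genes began at -1.09, and Akr1c6, Akr1c20 and Rdh7 lay below it. Akr1e1 and Aldh6a1 lay inside it. At 100 FPKM and above, the range of the 728 genes ran from -1.17 to 0.81, and none of the 4 members there lay below it. Rdh7 reached a mean of 1 FPKM only through the Ad-Luc group. No member at or above 1 FPKM lay above its range.

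The lower genes were largely those whose level set hepatocytes apart. Of the 45 genes, 13 had a mean in hepatocytes of at least 10 times that in both MEFs and ES cells, a class chosen after the values were seen. In this class 8 genes were lower (61.5%), with a median log2 ratio of -1.10. Over all 544 genes of the same kind, 44.3% were lower and 6.25% higher, with a median of -0.49. Of the other 32 members, 2 were lower (6.25%) with a median of -0.11, beside 3.82% and 0.03 for the 11246 remaining genes. The 5 members of the class that stayed within the fold were Adh4, Akr1c12, Akr1c13, Aldh1a1 and Aox1, so not every gene of the class was lower.

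Hepatocyte markers moved with these genes. Their sum over 8 genes was 7945 FPKM with Ad-Luc and 6150 FPKM with Ad-Cre. Of the 8 markers 5 were lower, beside 5.69% of all genes and 44.3% of hepatocyte-rich genes. Among the 5 were Ttr, which encodes transthyretin (96.9 and 32.6 FPKM), and Cps1, the entry enzyme of the urea cycle (12.3 and 3.94 FPKM). Alb, which encodes albumin, had 5207 and 4647 FPKM. Markers of most other liver cells were low. The 8 Kupffer cell and macrophage markers summed to 14.7 and 13.3 FPKM, with Clec4f at 0.015 and 0.0127 FPKM. The 7 endothelial markers summed to 14.5 and 20.9 FPKM with 1 higher, the 7 stellate cell markers to 1.84 and 3.53 FPKM with 1 higher, and the 8 fibroblast markers to 15.3 and 16.7 FPKM with 0 past the fold. The 5 cholangiocyte markers summed to 284 and 208 FPKM with 2 higher and 1 lower, with Spp1 at 264 and 165 FPKM and Krt19 at 11.3 and 33.2 FPKM. Of all genes, 5.7% were higher and 5.69% were lower. The higher stellate marker was Acta2 (0.978 and 2.75 FPKM), and a higher cholangiocyte marker was Krt7 (0.528 and 1.59 FPKM). Both reached a mean of 1 FPKM only through the Ad-Cre group. No marker of these 5 lists was at 0 in both groups. Their part in the values of the enzyme genes was not tested.

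Several of the enzyme genes lie in clusters of relatives, which allowed neighbours to be compared. A cluster was taken as at least 3 of the 70 genes with gaps under 250 kb. The Akr1c cluster spans 550 kb (chr13:4059591-4609164) and holds 9 genes, of which 7 reached 1 FPKM in hepatocytes and 5 were lower. Of all genes 5.69% were lower, and of hepatocyte-rich genes 44.3%. Its sum was 235 FPKM with Ad-Luc and 144 FPKM with Ad-Cre. The ratios of these 7 genes were all below 0, but they ranged from -0.40 for Akr1c13 to -2.97 for Akr1c6. The 8 Akr1c genes compared were 71.3% to 96.2% identical to each other in coding sequence over 28 pairs.

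The ADH cluster spans 245 kb (chr3:138210717-138455499) with 6 genes, and Adh1 was the only one past the fold among 3 at or above 1 FPKM. The AOX cluster spans 349 kb (chr1:58029969-58379264), where Aox3 was lower and Aox1 was not. The Akr1b cluster of 119 kb (chr6:34303930-34423137) had sums of 23.8 and 24 FPKM. Genes of the same cluster therefore had ratios that differed by over 2 on the log2 scale in the ADH, AOX and Akr1c clusters. In the ADH cluster these genes are not adjacent, since Adh6a and Adh6-ps1, both below 1 FPKM, lie between Adh1 and Adh4.

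**Figure D3:**
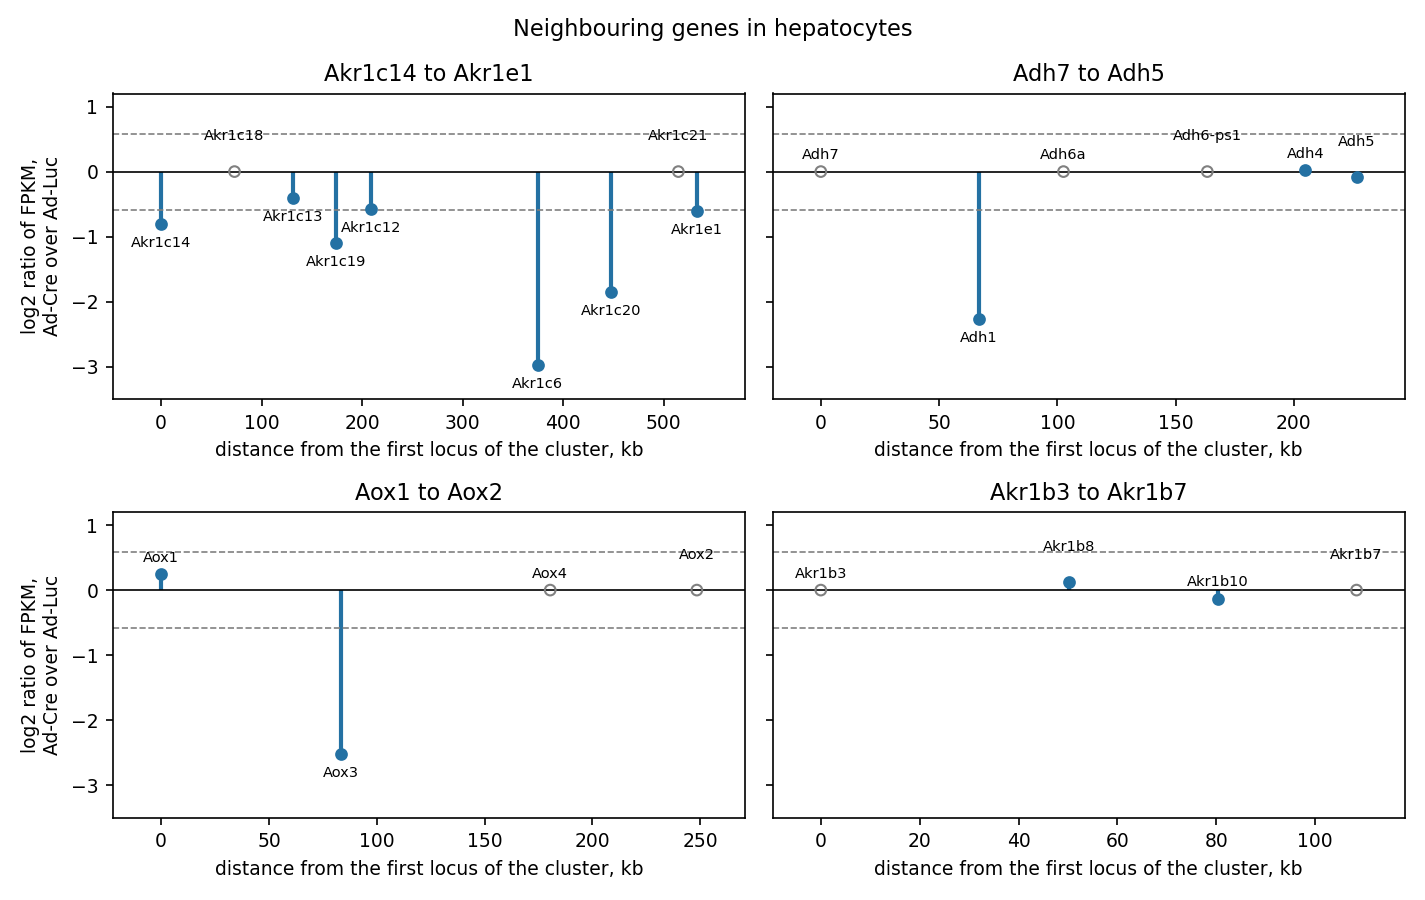
Log2 ratio of FPKM in hepatocytes (Ad-Cre over Ad-Luc, vertical axis) against distance in kb from the start of the first locus (horizontal axis) in the Akr1c, ADH, AOX and Akr1b clusters. Filled points are genes with a mean of at least 1 FPKM. Open points at 0 mark genes below that level with no ratio drawn, and dashed lines mark 1.5-fold. Adh1 (-2.26) shares a cluster with Adh4 (0.02) and Adh5 (-0.09), and Aox3 (-2.52) lies next to Aox1 (0.24).

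The start sites of these genes were compared as sequence. RefSeq promoter windows (GRCm38.p6, 250 bases before to 50 bases after the start) matched 56 of the 70 genes by symbol, among them 9 of the 10 genes lower in hepatocytes. A CG pair was counted as the letters CG, which read the same on both strands. The 9 windows held a median of 2 CG pairs, with 0 to 12 per window, and 45.3% G and C. The 30 windows of members within the fold held a median of 11 and 57.9%, and all 32851 windows of the table held a median of 7 and 52.7%. Low CG content was shared by genes of the hepatocyte class on both sides of the fold. The median was 1 in the 7 lower genes of the hepatocyte class and 2 in the 5 genes of that class within the fold, against 11 in the 25 other members within the fold.

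The windows of the 4 genes with the lowest ratios are shown with every CG pair in capitals, followed by Aox1, the neighbour of Aox3 that was not lower, and by Dhrs3 and Akr7a5, which were within the fold and are rich in CG. Akr1c6 (chr13:4434093-4434392, plus strand) and Rdh7 (chr10:127888684-127888983, minus strand) have 0 CG pairs, Adh1 (chr3:138277335-138277634, plus strand) has 6, Aox3 (chr1:58112886-58113185, plus strand) has 10, Aox1 (chr1:58029719-58030018, plus strand) has 7, Dhrs3 (chr4:144892577-144892876, plus strand) has 21 and Akr7a5 (chr4:139310494-139310793, plus strand) has 27.
Akr1c6: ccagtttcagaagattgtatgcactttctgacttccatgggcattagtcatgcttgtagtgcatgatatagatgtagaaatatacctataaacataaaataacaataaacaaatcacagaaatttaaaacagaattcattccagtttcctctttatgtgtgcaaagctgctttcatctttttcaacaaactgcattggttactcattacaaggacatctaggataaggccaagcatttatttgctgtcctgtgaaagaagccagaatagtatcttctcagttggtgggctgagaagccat
Rdh7: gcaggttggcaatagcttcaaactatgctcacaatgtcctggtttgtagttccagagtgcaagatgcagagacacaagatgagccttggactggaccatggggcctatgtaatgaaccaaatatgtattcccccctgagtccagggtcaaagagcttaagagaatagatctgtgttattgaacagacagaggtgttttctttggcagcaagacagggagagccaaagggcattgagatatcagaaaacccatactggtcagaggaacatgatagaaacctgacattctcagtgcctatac
Adh1: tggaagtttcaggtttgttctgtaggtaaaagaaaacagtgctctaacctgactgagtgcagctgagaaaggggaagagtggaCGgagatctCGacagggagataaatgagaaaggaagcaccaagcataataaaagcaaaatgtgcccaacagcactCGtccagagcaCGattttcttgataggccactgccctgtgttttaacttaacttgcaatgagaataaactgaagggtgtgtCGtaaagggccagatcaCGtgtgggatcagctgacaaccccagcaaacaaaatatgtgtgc
Aox3: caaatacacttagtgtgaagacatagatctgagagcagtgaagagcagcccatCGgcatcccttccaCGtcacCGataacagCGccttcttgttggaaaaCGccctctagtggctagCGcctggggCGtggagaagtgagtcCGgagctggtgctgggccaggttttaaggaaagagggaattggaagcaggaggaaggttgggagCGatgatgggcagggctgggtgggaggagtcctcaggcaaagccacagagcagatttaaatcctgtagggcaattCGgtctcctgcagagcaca
Aox1: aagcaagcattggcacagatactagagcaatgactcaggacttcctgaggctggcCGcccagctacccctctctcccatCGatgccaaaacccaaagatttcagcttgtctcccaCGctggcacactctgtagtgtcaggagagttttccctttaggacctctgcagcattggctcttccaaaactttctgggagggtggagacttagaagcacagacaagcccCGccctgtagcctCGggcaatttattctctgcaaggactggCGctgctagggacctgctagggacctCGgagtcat
Dhrs3: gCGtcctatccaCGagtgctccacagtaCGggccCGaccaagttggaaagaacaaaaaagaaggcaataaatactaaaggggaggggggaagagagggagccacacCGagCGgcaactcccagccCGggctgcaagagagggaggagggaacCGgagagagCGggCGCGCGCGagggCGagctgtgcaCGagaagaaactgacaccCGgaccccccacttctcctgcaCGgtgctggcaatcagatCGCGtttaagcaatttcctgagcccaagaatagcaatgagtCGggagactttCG
Akr7a5: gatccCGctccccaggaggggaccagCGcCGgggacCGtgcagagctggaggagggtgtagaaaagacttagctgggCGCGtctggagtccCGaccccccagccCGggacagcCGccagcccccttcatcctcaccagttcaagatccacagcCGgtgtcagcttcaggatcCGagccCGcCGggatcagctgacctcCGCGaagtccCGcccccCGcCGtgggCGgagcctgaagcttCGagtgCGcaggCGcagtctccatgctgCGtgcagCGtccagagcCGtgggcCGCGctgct

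Dhrs3 had 131 and 100 FPKM in hepatocytes (-0.39), and Akr7a5, a reductase of the aflatoxin aldehyde family, had 25.1 and 20.3 FPKM (-0.30). On either strand, the GC box letters GGGCGG, each of which also contains a CG pair, stood in 0 of the 9 windows of lower genes, in 16 of the 30 windows within the fold and in 35.7% of all windows. The letters CCAAT stood in 7 of 9, 13 of 30 and 37.4%, and the letters TATAAA in 2 of 9 (Akr1c6 and Aldh1a7), 3 of 30 and 13.6%. The 30 windows mix the hepatocyte class with other members. In that class within the fold (Adh4, Akr1c12, Akr1c13, Aldh1a1 and Aox1), the GC box letters stood only in Aox1. The letters CCAAT stood there in Adh4, Aldh1a1 and Aox1. These are matches of letters and not binding sites.

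**Figure D4:**
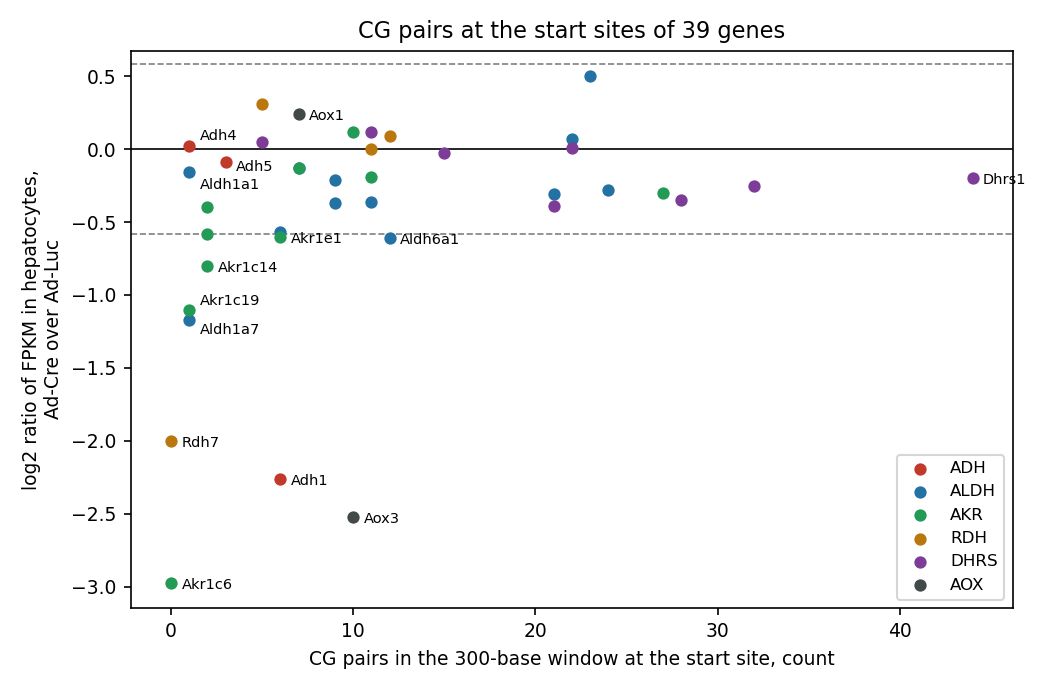
Number of CG pairs in the 300-base window at the start site (horizontal axis, count) against the log2 ratio of FPKM in hepatocytes (Ad-Cre over Ad-Luc, vertical axis) for the 39 genes with a window and a mean of at least 1 FPKM, coloured by family. Dashed lines mark 1.5-fold; the genes farthest below 0 have 0 (Akr1c6, Rdh7), 6 (Adh1) and 10 (Aox3) pairs, while Aldh1a1 and Adh4 with 1 pair each lie near 0.

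Windows of relatives were also compared with each other. Those of Akr1c12 and Akr1c13 were 93.4% identical over 304 aligned columns, and the genes had ratios of -0.58 and -0.40. Aldh1a1 and Aldh1a7 were alike near the start site but had ratios further apart. Their coding sequences were 91.7% identical, and 0.0203% of the 100-base words of Aldh1a1 and 0.0508% of those of Aldh1a7 were shared. Their windows, Aldh1a1 at chr19:20601718-20602017 on the plus strand and Aldh1a7 at chr19:20727507-20727806 on the minus strand, are printed with the bases that differ in a global alignment in capitals. Of the last 150 bases, which hold the start site, 142 were identical (94.7%) and 8 differed, while over all 318 aligned columns 70.4% were identical.
Aldh1a1: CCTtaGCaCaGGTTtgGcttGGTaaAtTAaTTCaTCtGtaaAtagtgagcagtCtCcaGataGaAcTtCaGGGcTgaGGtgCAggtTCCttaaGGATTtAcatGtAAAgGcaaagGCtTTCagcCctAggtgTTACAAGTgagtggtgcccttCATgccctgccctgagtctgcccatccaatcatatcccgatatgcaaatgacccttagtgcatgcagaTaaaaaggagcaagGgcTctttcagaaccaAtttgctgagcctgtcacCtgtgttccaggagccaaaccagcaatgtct
Aldh1a7: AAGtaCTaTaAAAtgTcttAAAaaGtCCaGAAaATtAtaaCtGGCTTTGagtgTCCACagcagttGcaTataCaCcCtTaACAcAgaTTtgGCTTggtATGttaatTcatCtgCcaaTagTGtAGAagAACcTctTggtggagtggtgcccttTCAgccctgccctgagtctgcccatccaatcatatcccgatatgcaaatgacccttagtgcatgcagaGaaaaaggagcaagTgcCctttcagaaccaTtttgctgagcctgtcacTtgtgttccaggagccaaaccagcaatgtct

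With this shared sequence at the start site, Aldh1a1 had 505 and 453 FPKM and Aldh1a7 had 16.9 and 7.52 FPKM, ratios of -0.16 and -1.17. In MEFs both were below 1 FPKM, at 0.9 and 0.358 FPKM for Aldh1a1 and at 0.167 and 0.0399 FPKM for Aldh1a7.

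In MEFs the families were close to the background. Of 36 genes at or above 1 FPKM, 2 were higher (5.56%) and 3 were lower (8.33%), beside 7.42% and 8.58% of all 12216 genes, and the median ratio was -0.01 against 0.03. By family, the lower genes were 3 of 13 ALDH genes (23.1%), a family with a median of -0.17. The higher genes were 1 of 6 AKR and 1 of 6 RDH genes. Aldh1a2, the main retinoic acid forming enzyme of the embryo, had 3.17 FPKM with Ad-Luc and 1.22 FPKM with Ad-Cre (-1.38). It was the only member in MEFs outside the range of 95% of genes of like level, which ran from -1.14 to 1.62. Aldh1l1, a folate enzyme, had 4.09 and 2.7 FPKM (-0.60), and Aldh4a1, an enzyme of proline breakdown, had 13.7 and 8.86 FPKM (-0.63). Transcripts of Aldh4a1 share 27.5% of their 100-base words with an overlapping annotated gene, Gm21969, so that value is uncertain.

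The 2 genes higher in MEFs had low levels. Akr1c18, a hydroxysteroid dehydrogenase that inactivates progesterone, had 0.624 FPKM with Ad-Luc and 1.51 FPKM with Ad-Cre (1.28), and Rdh5 had 1.03 and 1.61 FPKM (0.65). Akr1c18 reached a mean of 1 FPKM only through the Ad-Cre group. Of the 5 genes called in MEFs, only Akr1c18 and Aldh1a2 stayed past the threshold at 2-fold or with values plus 1 FPKM, and only Aldh4a1 had a mean of at least 5 FPKM. Genes with high levels in MEFs stayed within the fold, among them Aldh2 with 81.1 and 94.3 FPKM (0.22), Adh5 with 46.9 and 67 FPKM (0.51), Dhrs7 with 39.7 and 39 FPKM (-0.03), and Rdh11 with 25.3 and 19.8 FPKM (-0.36). Dhrs13 was just inside the fold at 1.496-fold lower. Fibroblast markers in the same cells summed to 13235 FPKM with Ad-Luc and 6699 FPKM with Ad-Cre, with 6 of 8 lower, beside 8.58% of all genes. The part of these markers in the values of Aldh1a2 and the other enzyme genes was not tested.

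In ES cells 1 of 32 genes was higher (3.12%) and 0 were lower, beside 2.02% higher and 0.722% lower of all 11909 genes. The gene was Rdh5, with 0.703 FPKM in Ad-Luc and 1.87 FPKM in Ad-Cre cells (1.41). Its ratio lay above the range of 95% of genes of like level, -0.45 to 0.73, but its mean level was only 1.29 FPKM. Rdh5 reached a mean of 1 FPKM only through the Ad-Cre group, so its place outside that range adds no support. Rdh5 lies 617 bp after Bloc1s1 on the same strand and shares 14.9% of its 100-base words with that gene, and Bloc1s1 had 48.5 and 51.7 FPKM in ES cells and 47.1 and 34.8 FPKM in MEFs. The part of Bloc1s1 in the Rdh5 values was not tested. The Rdh5 ratio was above 0 in all 3 cell types, at 0.65, 0.31 and 1.41. The genes of high level in ES cells kept within the fold, with Akr1a1 at 250 and 280 FPKM (0.17), Aldh2 at 174 and 195 FPKM (0.16), Adh5 at 140 and 159 FPKM (0.18), and Dhrs1 at 25 and 25.4 FPKM (0.02). ES markers summed to 6125 and 5996 FPKM, with 0 of 8 past the fold. Since Ssu72 itself was reduced less in these cells, the 3 comparisons differ in the size of the depletion as well as in the cell type.

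Set side by side with no test, most genes that were lower in hepatocytes could not be read in the other cells. Of the 10, only Akr1e1 and Aldh6a1 reached 1 FPKM in MEFs, at -0.24 and -0.07, and in ES cells, at 0.12 and -0.15. Akr1c6 and Akr1c20 were listed at 0 in all MEF and ES groups. Aldh1a2 was within the fold in ES cells, at 1.27 and 1.24 FPKM (-0.04), and was below 1 FPKM in hepatocytes. The ratio of Aldh1l1 was -0.60 in MEFs, 0.03 in ES cells and -0.37 in hepatocytes, and that of Aldh4a1 was -0.63, 0.13 and -0.36.

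Genes that work with these enzymes were followed through 4 lists. Retinoid partners (binding proteins, receptors and retinoic acid hydroxylases) included 16 genes at or above 1 FPKM in hepatocytes, of which 3 were higher and 2 were lower, beside 5.7% and 5.69% of all genes. Crabp2 and Rbp7 reached a mean of 1 FPKM only through the Ad-Cre group. Crabp2, a cytosolic retinoic acid binding protein, had 0.163 FPKM with Ad-Luc and 5.14 FPKM with Ad-Cre (4.98). Cyp26b1, which degrades retinoic acid, had 2.48 and 9.34 FPKM (1.91), and Rbp7, a retinol binding protein, had 0.207 and 1.8 FPKM (3.12). Retsat, a retinol saturase, had 32.3 and 21.1 FPKM (-0.61), and Bcmo1, which cleaves carotene to retinaldehyde, had 4.78 and 2.83 FPKM (-0.76). The list's median was 0.03, close to that of all genes.

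In MEFs 3 of 11 retinoid partners were lower and 0 were higher, beside 8.58% and 7.42% of all genes, with a median of -0.37 against 0.03 for all genes. Rbp4, the plasma retinol carrier, had 4.63 and 2.37 FPKM (-0.97), Rarb, a retinoic acid receptor, had 1.34 and 0.852 FPKM (-0.65), and Cyp26b1 had 6.63 and 4.21 FPKM (-0.65). Cyp26b1 was thus lower in MEFs and higher in hepatocytes, a difference that was not tested. Rarb reached a mean of 1 FPKM in MEFs only through the Ad-Luc group, so its call adds no support. In ES cells 0 of 13 retinoid partners passed the fold.

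Other genes of ethanol and aldehyde metabolism included 10 at or above 1 FPKM in hepatocytes, of which 4 were lower and 0 higher, beside 5.69% and 5.7% of all genes. Among hepatocyte-rich genes 44.3% were lower, but of the 4 genes only Fmo5 and Fmo1 belong to that class. Fmo5 had 19.1 FPKM with Ad-Luc and 8.07 FPKM with Ad-Cre (-1.24), and Fmo1 had 9.38 and 4.04 FPKM (-1.21); both are flavin monooxygenases. Acss2, which makes acetyl-CoA from acetate, had 12.2 and 7.7 FPKM (-0.66), and Adhfe1, a hydroxyacid transhydrogenase, had 1.74 and 1.1 FPKM (-0.67). Cat, catalase, was within the fold at 382 and 316 FPKM, and Cyp2e1, the microsomal ethanol oxidase, had 1.14 and 1.24 FPKM. In MEFs 1 of 7 was higher (Esd, 130 and 228 FPKM, 0.81) and 1 was lower (Acss2, 2.91 and 1.4 FPKM, -1.06), beside 7.42% and 8.58% of all genes. In ES cells 0 of 6 passed the fold.

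The aldehyde oxidases need a molybdenum cofactor, and genes of its synthesis and of related oxidases were mostly within the fold. In hepatocytes 1 of 9 was lower, beside 5.69% of all genes. It was Marc1, a mitochondrial amidoxime reductase, with 6.56 and 2.65 FPKM (-1.31). Mocos, the sulfurase that activates the cofactor of aldehyde oxidase, had 18.7 and 21.8 FPKM in hepatocytes (0.22). It was higher in MEFs, at 4.32 and 7.01 FPKM (0.70), the only one of 8 there, beside 7.42% of all genes. In ES cells 0 of 7 passed the fold. Xdh, the xanthine oxidoreductase related to Aox3, had 18 and 14.6 FPKM in hepatocytes (-0.31).

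Carbonyl and steroid reductases outside the 6 families had 3 of 18 genes lower and 1 higher in hepatocytes, with a median of -0.25, beside 5.69% lower and 5.7% higher of all genes. Hsd17b13, a lipid droplet protein of the liver, had 81.5 and 28.9 FPKM (-1.49), Cbr1, a carbonyl reductase, had 99 and 59.3 FPKM (-0.74), and Sord, sorbitol dehydrogenase, had 19.8 and 12.4 FPKM (-0.68). Hsd17b1, an oestrogenic steroid dehydrogenase, was higher in hepatocytes at 1.29 and 3.74 FPKM (1.53) and in MEFs at 1.06 and 3.35 FPKM (1.66). In MEFs 3 of 17 were lower, beside 8.58% of all genes: Cbr2 with 59.7 and 20.2 FPKM (-1.57), Hsd17b7, which also acts in cholesterol synthesis, with 16.6 and 5.49 FPKM (-1.59), and Hsd11b2 with 1.72 and 0.56 FPKM (-1.62). Hsd11b2 reached a mean of 1 FPKM in MEFs only through the Ad-Luc group, so its call adds no support. In ES cells 1 of 16 was higher, Cbr3, with 11.8 and 18.9 FPKM (0.69), beside 2.02% of all genes.

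Members below 1 FPKM gave no call. They numbered 34 for MEFs, 25 for hepatocytes and 38 for ES cells, and 4, 5 and 9 of the 70 genes were listed at 0 in both groups. In hepatocytes they included Adh7, the stomach form of the enzyme (0.615 and 0.214 FPKM), Aldh8a1 (0.889 and 0.486 FPKM) and Akr1d1, a steroid reductase of bile acid synthesis (0.263 and 0.0714 FPKM). Their ratios rest on levels too low to be read without replicate values.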

How the data were processed

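RNA-Seq values of MEFs, hepatocytes and ES cells (Ad-Luc and Ad-Cre, 16 samples) were analysed from 3 tables of all genes. The deposited FPKM values, 1 per gene and group, were made by the authors, and the tools listed by the submitters are Cuffdiff 2.2.0, TopHat2 2.0.13, CASAVA, edgeR and DESeq, with mm10 as genome build. The study's methods describe stranded total RNA, paired-end reads and an ERCC spike-in, with a Partek and ANOVA analysis, so which tool made each column is not fully settled by the sources. The tables also hold the authors' own fold changes, test statistics, p-values and q-values, which were not used, and the authors' lists of selected genes were not used either. The tables used hold no column of a single sample. Depth and replicate spread are therefore unknown, and no interval or test is given.

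The log2 ratio of Ad-Cre over Ad-Luc was computed with no pseudocount. Calls used 1.5-fold and a mean of both values of at least 1 FPKM. Alternatives were no level minimum, 5 FPKM, 2-fold, ratios of values plus 1 FPKM, and ratios centred on the median gene or on 74 ribosomal protein genes. Calls were tested on simulated data. The planted changes were 2-fold with little noise, so this checks the code only. It gives no measure of replicate error or of calls near the threshold or the level minimum. Named genes were every member past the fold at this level in any cell type, the 3 members per family and cell type with the highest mean, list members past the fold, members of clusters with a named gene, and Ssu72. A few further genes within the fold or below the level were named for comparison after their values were seen. The members and lists were chosen with earlier results of these data known, and an item of the retinoid list is not reported here.

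Locus starts in the tables count from 0, so 1 was added, and mm10 coordinates are printed. Promoter windows are from RefSeq (GRCm38.p6), taking the start nearest to the locus edge. Transcripts and coding sequences came from GENCODE (GRCm38), and 100-base words were compared over all transcripts. Python 3.11.15, numpy 2.4.6, pandas 2.3.3 and matplotlib 3.10.9 were used.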

Additional observations from a re-analysis of the deposited data

How the results depend on the processing

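No paired analysis was possible because the tables hold only 1 pooled value per group, and for the same reason no replicate could be left out. In hepatocytes the count of lower members was 10 and ranged from 7 (2-fold) to 15 (no level minimum): 8 at 5 FPKM, 8 with values plus 1 FPKM, 12 centred on the median gene and 8 centred on ribosomal protein genes. Members considered were 62 with no level minimum, 39 at 5 FPKM and 45 otherwise. Of all genes, 5.69% were lower at the main setting, 2.26% at 2-fold, 8.69% with no level minimum and 4.73% at 5 FPKM. The share was 4.44% with values plus 1 FPKM, 6.01% centred on the median gene and 4.83% centred on ribosomal protein genes. Adh1, Akr1c6, Akr1c19, Aldh1a7 and Aox3 were called under each of these settings. Higher members in hepatocytes were 0, and 7 with no level minimum, where 14.9% of all genes were higher. In MEFs the 2 higher members became 11 with no level minimum, 0 at 5 FPKM, and 1 at 2-fold, with values plus 1 FPKM and on the ribosomal centring. Members considered were 59 with no level minimum, 24 at 5 FPKM and 36 otherwise. Of all genes, 16.1% were higher with no level minimum, 4.98% at 5 FPKM and 2.74% at 2-fold. The share was 5.25% with values plus 1 FPKM and 3.75% on the ribosomal centring. The 3 lower members in MEFs became 10 with no level minimum, 1 at 5 FPKM, at 2-fold and with values plus 1 FPKM, 5 centred on the median gene and 9 centred on ribosomal protein genes. Of all genes, 12.4% were lower with no level minimum, 7.77% at 5 FPKM, 3.09% at 2-fold and 6.34% with values plus 1 FPKM. The share was 9.37% centred on the median gene and 18.2% centred on ribosomal protein genes. In ES cells the 1 higher member became 5 with no level minimum and 0 at 5 FPKM, and the 0 lower members became 4 with no level minimum. Members considered were 57 with no level minimum and 21 at 5 FPKM. Of all genes, 8.91% were higher and 4.88% lower with no level minimum, and 0.78% were higher at 5 FPKM.

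The median gene stood at 0.03, 0.02 and 0.01 (log2) in MEFs, hepatocytes and ES cells, and the median ribosomal protein gene at 0.26, -0.07 and 0.20. The ribosomal centring changed the split of all genes from 906 higher and 1048 lower to 458 and 2222 in MEFs, and from 241 and 86 to 144 and 311 in ES cells. Of 145 values of 15 named members under the alternatives, 128 kept their direction and their call, or stayed without a call. A further 14 kept their direction and lost the call. The other 3 changed sign within the fold, all in ES cells on the ribosomal centring: Akr1e1 from 0.12 to -0.09, Aldh1l1 from 0.03 to -0.18 and Aldh4a1 from 0.13 to -0.07. No called value changed sign. Values of members below the 5 FPKM minimum are not among the 145, so calls lost in that way are not counted. The 2 changes of level minimum leave ratio and fold as they were, so values kept under them could not change. With the hepatocyte class set at 5 or 20 times the level of the other cells, alternatives chosen after seeing the data, 8 of 15 and 8 of 13 members were lower, beside 36.4% and 48% of all genes of that class. The unknown depth limits every gene near 1 FPKM.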
